A study of Mus musculus with 12 samples.

Results

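Enhancers far from any protein-coding gene start were described in mouse mesenchymal stem cells (MSCs) by H3K27ac, acetylation of lysine 27 of histone H3. The regions described are those that lie on an autosome, are shorter than 50 kb, have their edge more than 50 kb from the nearest protein-coding transcription start site (TSS) and share no base with a region of H3K27me3, the Polycomb mark on the same residue. In mm10 (GRCm38) with the GENCODE vM21 annotation, 8609 of the 31617 H3K27ac regions met this rule, or 27.2%, and they covered 47.1 Mb. Of 10078 autosomal regions under 50 kb that lay beyond that distance, 1469 (14.6%) were removed because they touched H3K27me3. The rule used position and overlap only and no signal value. Both marks were profiled by CUT&RUN, in which a nuclease tethered by an antibody cuts out the marked chromatin for sequencing. MSCs of young mice (3 to 5 months) and of old mice (18 to 22 months) were each profiled in 3 replicates per mark, all grown at 2% oxygen. Each sample of cells was split over the tubes of both antibodies, and no knockout, transgene or treatment separates the groups. The labels name neither strain nor sex and do not say whether a replicate is 1 animal, so p-values measure only the spread between these libraries.

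MSCs are stromal precursors of osteoblasts, adipocytes and chondrocytes. Enhancers are stretches of DNA that bind transcription factors and raise the activity of a gene, sometimes from far along the chromosome, and active ones carry H3K27ac on the flanking nucleosomes. Gene deserts, long stretches without protein-coding genes, are either nearly empty or filled with enhancers of a developmental gene at their edge, as upstream of the cartilage regulator Sox9. Factors that bind enhancers in fibroblasts and stromal cells include AP-1, the TEAD partners of YAP, RUNX proteins and basic helix-loop-helix proteins such as TWIST1, which bind E-boxes.

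Sequences from 8 of the regions are shown because they carry the results on clusters and on age. For each of the 6 clusters with the most regions the strongest member per kb was taken, and for age the 2 regions with the largest called change. Each sequence is 300 bases of the plus strand of GRCm38 around the densest group of motif matches, and capitals mark those matches on either strand. The motifs searched were AP-1 (TGACTCA or TGAGTCA), TEAD (GGAATG), RUNX (TGTGGTT), E-box (CATCTG), NFI (TTGGCA), C/EBP (TTGCGCAA or TTGCATAA or TTGCACAA), CTCF core (AGGGGGCG), HOX (TTTATTG) and SOX (ACAATGG). The windows lay at chr10:16544669-16544968 (cluster between Nmbr and Cited2), chr12:79596672-79596971 (inside Rad51b), chr2:50914237-50914536 (between Mmadhc and Rnd3), chr4:64637642-64637941 (between Tnc and Pappa), chr16:85999121-85999420 (between Adamts5 and N6amt1) and chr2:135241846-135242145 (inside Plcb1). The called regions lay at chr10:56910860-56911159, beyond Gja1, and chr12:58425873-58426172, beyond Clec14a.
Nmbr-Cited2: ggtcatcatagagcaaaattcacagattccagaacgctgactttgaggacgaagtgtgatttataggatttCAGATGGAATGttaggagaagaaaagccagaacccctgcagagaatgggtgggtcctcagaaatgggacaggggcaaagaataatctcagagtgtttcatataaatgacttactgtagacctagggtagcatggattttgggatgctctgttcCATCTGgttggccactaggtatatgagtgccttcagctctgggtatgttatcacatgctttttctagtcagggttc
Rad51b-Zfp36l1: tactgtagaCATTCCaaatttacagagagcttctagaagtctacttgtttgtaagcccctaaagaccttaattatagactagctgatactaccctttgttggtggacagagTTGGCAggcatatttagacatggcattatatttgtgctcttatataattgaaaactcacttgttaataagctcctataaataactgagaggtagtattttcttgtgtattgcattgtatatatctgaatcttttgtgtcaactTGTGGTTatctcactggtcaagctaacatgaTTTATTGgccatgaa
Mmadhc-Rnd3: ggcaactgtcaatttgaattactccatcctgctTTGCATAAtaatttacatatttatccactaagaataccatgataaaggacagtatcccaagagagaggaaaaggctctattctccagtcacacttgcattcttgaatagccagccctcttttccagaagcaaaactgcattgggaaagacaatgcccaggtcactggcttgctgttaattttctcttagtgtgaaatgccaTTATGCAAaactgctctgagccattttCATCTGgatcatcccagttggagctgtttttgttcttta
Tnc-Pappa: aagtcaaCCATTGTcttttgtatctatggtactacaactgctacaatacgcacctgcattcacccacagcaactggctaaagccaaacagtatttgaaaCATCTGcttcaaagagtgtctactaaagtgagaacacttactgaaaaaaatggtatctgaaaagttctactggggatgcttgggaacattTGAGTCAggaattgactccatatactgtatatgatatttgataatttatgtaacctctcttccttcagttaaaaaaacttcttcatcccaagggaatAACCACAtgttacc
Adamts5-N6amt1: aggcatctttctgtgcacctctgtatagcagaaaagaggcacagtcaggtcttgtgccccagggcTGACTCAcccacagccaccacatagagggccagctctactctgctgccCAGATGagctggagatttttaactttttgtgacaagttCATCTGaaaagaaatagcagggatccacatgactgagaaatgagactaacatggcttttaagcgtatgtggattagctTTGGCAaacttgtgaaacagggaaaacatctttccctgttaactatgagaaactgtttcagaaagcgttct
Plcb1-Plcb4: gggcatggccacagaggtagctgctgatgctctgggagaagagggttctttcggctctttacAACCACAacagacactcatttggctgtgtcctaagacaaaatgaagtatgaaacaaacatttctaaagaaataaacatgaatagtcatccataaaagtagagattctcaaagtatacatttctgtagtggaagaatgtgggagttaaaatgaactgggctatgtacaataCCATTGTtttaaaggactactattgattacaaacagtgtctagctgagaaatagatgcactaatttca
Gja1: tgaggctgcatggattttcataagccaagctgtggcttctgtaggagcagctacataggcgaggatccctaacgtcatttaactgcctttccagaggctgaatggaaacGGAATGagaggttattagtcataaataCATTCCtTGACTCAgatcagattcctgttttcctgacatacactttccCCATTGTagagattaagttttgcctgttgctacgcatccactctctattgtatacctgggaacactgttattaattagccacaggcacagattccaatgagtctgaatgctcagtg
Clec14a: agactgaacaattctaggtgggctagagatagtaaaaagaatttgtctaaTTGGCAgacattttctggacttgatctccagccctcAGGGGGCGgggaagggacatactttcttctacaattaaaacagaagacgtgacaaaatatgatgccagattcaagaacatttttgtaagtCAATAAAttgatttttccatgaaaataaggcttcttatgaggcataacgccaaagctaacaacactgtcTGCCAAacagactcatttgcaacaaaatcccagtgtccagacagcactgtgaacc
The Nmbr-Cited2 window held 2 E-boxes and 1 TEAD match that overlaps the first of them by its first base. The Mmadhc-Rnd3 window held 2 C/EBP matches, 1 on each strand. The Tnc-Pappa and Adamts5-N6amt1 windows each held 1 AP-1 match. In the Gja1 window, 2 TEAD matches, 1 AP-1 match and 1 SOX match stood within the central part. The Clec14a window held 2 NFI matches, 1 HOX match and the only CTCF core among the 8. A match is a description of letters and does not show that a factor binds there.

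The chromatin at gene starts was that of stromal cells. H3K27ac covered the TSS of all 13 stromal markers examined, among them Pdgfra, Prrx1, Col1a1 and Cxcl12. It covered 0 of 4 erythroid and 0 of 4 neural markers, 1 of 5 endothelial markers (Pecam1) and 2 of 7 blood markers (Cd68 and Csf1r), while Ptprc, the pan-leukocyte gene, had none. The H3K27ac libraries held 2750953 to 5541429 reads, and Old replicate 2 was the shallowest. The median distal region held 10 reads in Old replicate 2 and 25 reads in Young replicate 3, so that a change in a single region is measured coarsely.

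Distal regions were about as strongly acetylated per kb as enhancers nearer to genes. Levels are given as scaled RPM, the reads of a region per 1e6 reads of the library (RPM) after division by a median-of-ratios factor (RLE), and as density, scaled RPM per kb of region. The median density was 1.11, 1.07 and 1.15 in Young replicates 1 to 3 and 1.09, 1.05 and 1.02 in Old replicates 1 to 3. For the 10002 H3K27ac-only regions at 1 to 50 kb from a TSS it lay between 0.98 and 1.03, and for the 6523 H3K27ac-only regions within 1 kb of a TSS between 1.14 and 1.21. The length of a distal region was 3.5 kb at the median (quartiles 2.5 and 6.5 kb), against 4.0 kb for nearer distal regions and 9.5 kb at gene starts. They were also poorer in GC (median 42.5%, against 44.4% and 46.7%) and in CpG dinucleotides (8.17 per kb, against 10.0 and 17.8). Polycomb lay farther away, with a median gap to the next H3K27me3 region of 30.5 kb against 18.5 and 8.0 kb. Just outside the distance limit, the 562 regions at 45 to 50 kb had a median density of 1.05, and just inside it the 554 members at 50 to 55 kb had 1.06. At the length limit the 46 regions of 50 kb or longer had a median density of 1.13 and the 34 members of 40 to 50 kb one of 0.96. The 1469 regions left out for H3K27me3 had a median density of 1.10 and a median log2 fold change (old over young) of -0.11, against -0.06 for the members.

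**Figure D1:**
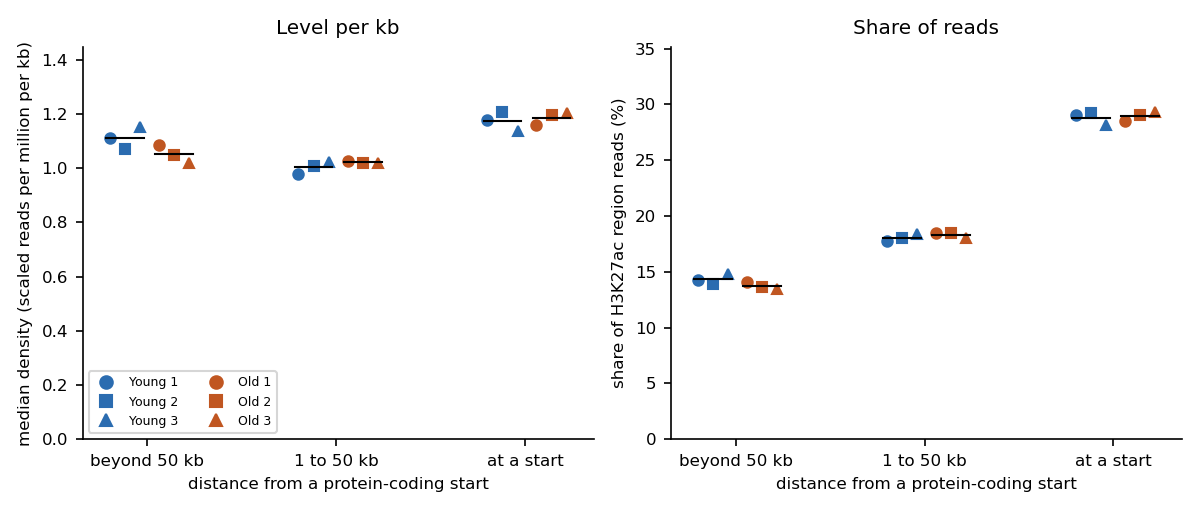
H3K27ac in 3 classes of H3K27ac-only region by distance from a protein-coding start. Left, median density in scaled RPM per kb; right, percent of all H3K27ac region reads; each symbol is 1 library and each line the mean of 3. The distal regions held 13.5% to 14.8% of region reads in every library.

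Enhancer motifs were frequent in the distal regions. In the central 1 kb, an AP-1 match occurred in 32.6% of them, against 30.2% of nearer distal regions, 16.4% of regions at starts and 26.8% of all H3K27ac regions. TEAD matches occurred in 52.1%, against 46.8% of all regions, and NFI matches in 48.2%, against 44.5%. E-boxes (57.7%, against 55.6%), HOX (21.8%, against 19.3%), SOX (14.3%, against 12.8%) and C/EBP matches (7.79%, against 6.66%) differed less. RUNX matches were found in 24.8% of distal regions and 24.3% of all regions. The CTCF core, the motif of the factor that anchors chromatin loops, was rarer, at 1.05% against 2.52% of all regions and 4.95% of regions at starts. Nearer distal regions shared this, at 1.25%. The GC content of the classes moves with these shares, and its part in them was not tested.

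Just over 1 in 2 regions lay between genes. Of the 8609, 4784 (55.6%) were wholly intergenic, 3697 (42.9%) lay wholly inside a protein-coding gene, and 128 crossed a gene's edge. The rule counts protein-coding starts only, and 570 regions (6.62%) covered an annotated start of another kind of gene, 264 of them a lincRNA start. Those regions were longer (median 7.0 kb) and richer in CpG (9.91 per kb) than the 3269 regions that lay over 50 kb from every annotated start of any kind (3.5 kb and 7.67 per kb). Their density was similar, at a median of 1.12 against 1.08 scaled RPM per kb.

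The nearest gene start was acetylated for most distal regions. It lay under an H3K27ac region for 6042 of them (70.2%), against 68.8% for nearer distal regions. Counted once per gene, 65.4% of the 2710 nearest genes had an acetylated start, against 69.1% of the 5947 genes nearest to nearer distal regions and 54.0% of all 20696 autosomal protein-coding genes. When the starts of all annotated genes set both the classes and the nearest start, the shares were 37.8% and 39.7%. The distal class was then the 3269 regions over 50 kb from every annotated start, so these shares are of other sets of regions. H3K27me3 covered the nearest start for 25.8% of distal regions, against 21.4% of nearer ones, and neither mark did for 10.4%, against 15.0%. Counted once per gene, H3K27me3 covered a start in 32.4% of the genes nearest to distal regions and 24.4% of those nearest to nearer ones. Of all autosomal protein-coding genes it covered 30.2%. With distance the share of acetylated starts went from 71.2% at 50 to 100 kb to 64.6% beyond 500 kb. The nearest gene is a label of position and is not shown to be the target.

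Gene deserts differed widely in their number of distal regions. Stretches of at least 500 kb between protein-coding genes numbered 601 and spanned 699 Mb. They held 2361 distal regions (27.4%), or 3.38 per Mb, a share not set against the part of the genome that deserts cover. Of the deserts, 251 (41.8%) held none and 268 held 1 to 9. The 82 deserts with 10 or more regions held 1422 of them, or 60.2% of all regions in deserts. The fullest were the 1452 kb between Adamts5, an aggrecanase of cartilage matrix, and N6amt1 (44 regions), the 1786 kb between the growth regulator Myc and Gsdmc (43) and the 2952 kb between Nmbr and Cited2, a co-regulator that competes with HIF1A for CBP/p300 (42). They were followed by Marcks-Rfpl4b (38), Zeb2-Acvr2a (35), Mmadhc-Rnd3 (33), Tnc-Pappa (31), Ttll7-Adgrl2 (29) and Kcnj2-Sox9 (29). The longest desert, 4668 kb between Tenm3 and Aga, held 0 regions, and the 8 longest held 0 to 8.

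**Figure D2:**
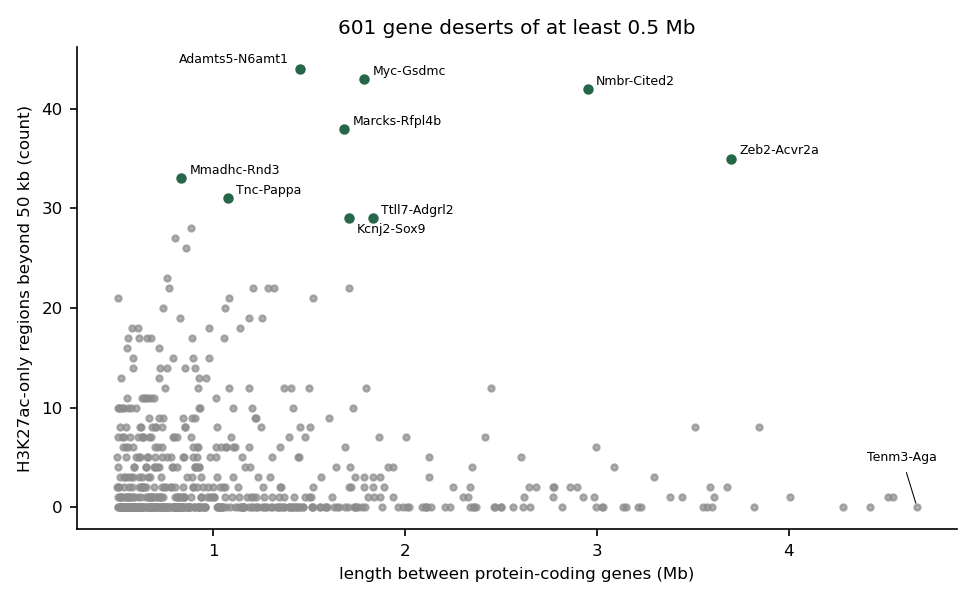
Number of H3K27ac-only regions beyond 50 kb in each of 601 gene deserts against the length of the desert in Mb. The 9 fullest deserts, in green, hold 29 to 44 regions, whereas the longest, Tenm3-Aga, holds 0.

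Distal regions came in clusters. When neighbours at most 100 kb apart were chained, 538 chains had 5 or more regions and held 4610 of the 8609 (53.5%), while 1210 regions stood alone. The median cluster spanned 178 kb, 156 clusters had at least 10 regions and 19 had at least 20. In 516 clusters (95.9%) at least 1 of the flanking genes had an acetylated start, and in 307 both had one. The largest held 36 regions over chr10:16440001-17658500, of which regions covered 18.7%, and it ended 64.7 kb from Cited2. Its summed level was 282, 258 and 272 scaled RPM in Young replicates 1 to 3 and 267, 265 and 247 in Old replicates 1 to 3, so that the ages overlapped.

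The second largest cluster, chr12:79372001-80048000 with 35 regions, had 22 of them inside the recombination gene Rad51b, ended 65.0 kb from the start of Zfp36l1, a factor of mRNA decay, and was the most densely covered of the 8 (39.1%). Its sums were 339, 295 and 293 scaled RPM in the young and 292, 252 and 303 in the old replicates. The cluster next to Rnd3 had 33 regions over chr2:50355501-51058000, and the cluster between the matrix gene Tnc and Pappa had 31 over chr4:64097501-65048500. Both were wholly intergenic. The sums at Rnd3 were 181, 163 and 168 scaled RPM in the young and 146, 142 and 163 in the old replicates, without overlap but not called (log2 fold change -0.19, adjusted p 0.17 in limma). The Adamts5-N6amt1 cluster had 29 regions over chr16:85955001-86652000 and the lowest GC content of the 8, with a median of 37.0%. The last 3, with 27 regions each, lay in Plcb1 and Plcb4 (chr2:134864501-135662500), between Myc and Gsdmc (chr15:62870001-63615500) and inside Ptprm (chr17:66738001-67300000). At Gsdmc, Nmbr and Themis3 H3K27me3 covered the start of the flanking gene, and at Gsdmc and Themis3 no H3K27ac did.

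By nearest start, few genes had a distal region, and the rule limits which genes can. A gene can have one only where a stretch of over 50 kb without protein-coding starts adjoins it. The part of this limit in the counts was not tested. Only 2710 of 20780 autosomal protein-coding genes (13.0%) had any, and 142 genes with 10 or more had 1971 regions (22.9%). Cited2 led with 36, all upstream of its start, out to 1280.2 kb. Inhba, which encodes a subunit of activin, had 31 regions on both sides (12 upstream, 19 downstream). Zeb2, a repressor of epithelial genes, had 28, all upstream and as far as 1537.1 kb. Adamts5 had 27, and Sox9, Marcks, Rnd3 and Gsdmc 26 each. At Sox9 20 regions were upstream and 6 downstream, none closer than 161 kb by its centre. Within a locus the level varied widely, while the young medians of 6 such loci lay between 1.00 and 1.23 and the old medians between 0.97 and 1.18. Young mean density ranged from 0.61 to 1.82 scaled RPM per kb around Cited2, from 0.67 to 2.18 around Sox9 and from 0.71 to 2.45 around Runx2.

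**Figure D3:**
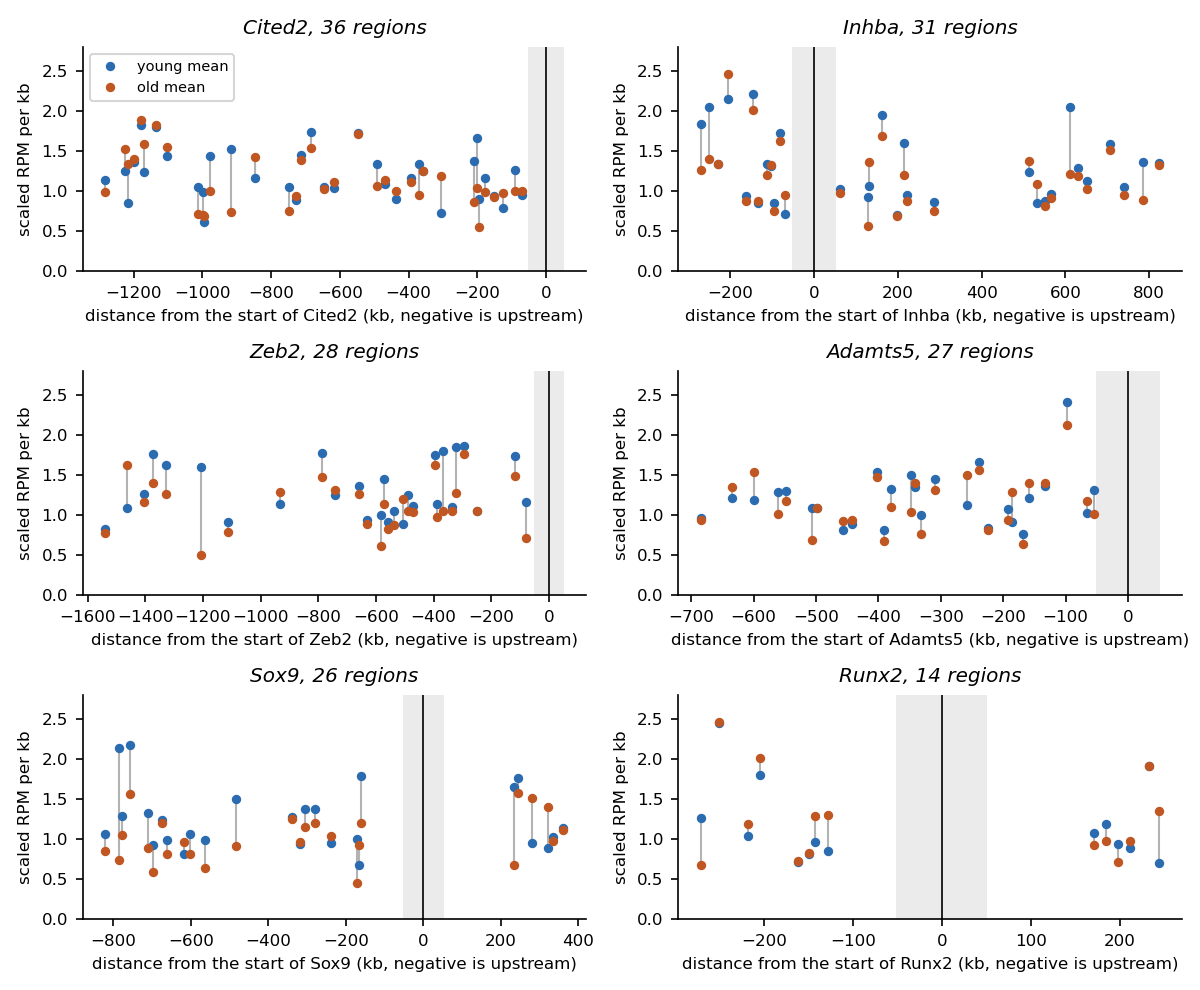
Density of each distal region around 6 genes against the distance of its centre from the gene's start, negative upstream, with the 50 kb on each side that the rule leaves out in grey. Blue and orange points are the means of 3 young and 3 old libraries in scaled RPM per kb, joined by a line; regions of Cited2, Zeb2 and Adamts5 lie upstream only, and those of Runx2 reach 271 kb.

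Distal regions lay nearest to many of the listed stromal genes. Of the lists, 29 of 38 for fibroblast matrix and signalling (76.3%), 31 of 47 for limb and stromal patterning (66.0%), 7 of 12 for cartilage (58.3%), 6 of 13 for fat (46.2%) and 9 of 22 for bone (40.9%) were the nearest gene of at least 1. For other cell types the counts were 6 of 12 endothelial (50.0%), 5 of 16 blood (31.3%) and 4 of 17 neural genes (23.5%), against 13.0% of all genes. With 3 or more regions the shares were 65.8% and 46.8% for the first 2 lists, 8.33% for endothelial, 6.25% for blood and 0% for neural genes, against 5.26% of all genes. These are descriptions without a test, and long intergenic stretches beside developmental genes offer more room for regions.

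Among bone genes, Runx2, the master regulator of osteoblasts, had 14 regions, whose summed level was 81.5, 79.6 and 83.5 scaled RPM in the young and 92.1, 81.4 and 74.1 in the old replicates. The young values lie inside the old range. Fgfr2, a growth factor receptor of bone-forming cells, had 8 regions, the osteoclast inhibitor Tnfrsf11b 4 and Wnt5a 3. Of the 42 regions near bone genes 25 had a fold change below 0, with a median log2 fold change (old over young) of -0.04, and 0 were called. Among fat genes Tcf7l2, an effector of Wnt signalling, had 8 regions, Cebpd 5 and Ebf1 3. The 3 regions of Ebf1, a factor of fat and B-cell precursors, summed to 18.8, 18.8 and 16.4 scaled RPM in the young and 13.6, 9.44 and 11.5 in the old replicates, without overlap. Old sums lay wholly below young ones in 19.9% of the 538 clusters as well. The 20 regions near fat genes had a median of -0.02.

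Of the 8 lists, that of cartilage genes had the lowest median change. Of 84 regions 65 had a fold change below 0, the median was -0.28, against -0.06 over all distal regions and -0.003 over all H3K27ac regions, and 1 was called. The endothelial list, genes of another cell type, came next with a median of -0.18 and 13 of 19 regions below 0, and the 13 regions of Cdh5 alone had -0.18. Cdh5 is a label by nearest start and not a shown target. The desert between Cdh11, a gene of the fibroblast list, and Cdh5 held 22 regions, 17 of them below 0, with a median of -0.36. Sox9 regions summed to 115, 100.1 and 113 scaled RPM in the young and 98.9, 88.5 and 99.1 in the old replicates. Those of Sox6, which acts with Sox9 in chondrocytes, summed to 188, 153 and 159 in the young and 144, 121 and 132 in the old replicates. Trps1, a GATA-type repressor active in cartilage, gave 110, 104 and 93.7 against 80.5, 71.2 and 80.5. In all 3 genes the old libraries lay below the young ones. Summed over clusters of distal regions, the same held in 19.9% of the 538 clusters, and the share over all genes was not counted. Hapln1, which links hyaluronan to aggrecan, had 4 regions with 11.4, 12.7 and 10.0 against 7.17, 7.47 and 3.31. Sox5 differed from them, with 11 regions, a median of 0.04 and sums of 49.7 to 66.1 in the young and 55.8 to 58.8 in the old replicates. Without Young replicate 1 the median of the 84 regions was -0.15 and without Old replicate 2 it was -0.16.

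Patterning and matrix genes were mixed. Among patterning genes Zeb2 (28 regions), Tbx18 (10) and Tbx3, Foxp1 and Zeb1 (9 each) were among those with the most, and the 190 regions of the list had a median of -0.11 with 0 called. Zeb2 regions summed to 181, 162 and 163 scaled RPM in the young replicates and to 160.0, 114 and 164 in the old, so that Old replicate 2 alone lay far below. Tbx3, a limb T-box factor, had a median of 0.22 in its 9 regions, whose sums of 42.0, 45.6 and 49.7 in the young and 42.8, 44.4 and 49.4 scaled RPM in the old replicates overlapped. Among matrix and signalling genes Myc had 23 regions, Has2 18, Thbs1 13, Runx1 and Tgfbr2 12 each and Dcn 11. Has2, which makes hyaluronan, gave 120, 118 and 113 scaled RPM in the young and 95.1, 88.1 and 96.6 in the old replicates, and in 8 of its 18 regions every old library lay below every young one, as in 29 of the 198 regions of the list (14.6%) and 7.42% of all H3K27ac regions. Dcn, which encodes the matrix proteoglycan decorin, gave 75.6, 62.9 and 64.0 against 53.6, 35.4 and 50.7. The regions nearest Myc lay the other way, at 169, 166 and 187 in the young and 195, 189 and 183 in the old replicates, which overlap. Its locus as a whole did not. Gsdmc, at the other end of the desert beside Myc, had 26 regions with a median of -0.23, 20 of them below 0. The 27-region cluster between Myc and Gsdmc gave 136.2, 131.3 and 149.6 scaled RPM in the young and 130.5, 115.6 and 123.8 in the old replicates. Those groups did not overlap, but the cluster was not called (adjusted p 0.21 in limma). Of the other lineages, Cdh5 (VE-cadherin) had 13 regions and Ptprc 6, and neither gene had H3K27ac at its start.

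With age, the distal regions as a set shifted by little. They held 14.3%, 13.9% and 14.8% of all H3K27ac region reads in Young replicates 1 to 3 and 14.1%, 13.6% and 13.5% in Old replicates 1 to 3. Counting error is small beside these differences, with a 95% Wilson interval of 13.5% to 13.7% for Old replicate 2, an interval that covers counting error only. The means were 14.3% ± 0.430 (SD, n = 3) and 13.7% ± 0.303 (SD, n = 3), the groups overlapped, and p was 0.20 in a two-sided exact permutation test, where 3 against 3 cannot give less than 0.10. Against nearer distal regions of the same library, the median log2 reads per kb was higher by 0.18, 0.09 and 0.17 in the young and by 0.08, 0.04 and 0.00 in the old replicates. The young mean was 0.15 ± 0.05 (SD, n = 3) and the old mean 0.04 ± 0.04 (SD, n = 3), without overlap, and the exact permutation test gave its smallest possible p, 0.10. The median log2 fold change was -0.06 for distal regions, 0.02 for nearer distal regions and 0.02 at gene starts.

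In single regions few changes passed the test. Calls rest on limma, with log2(signal + 0.5) fitted over all 31617 regions and an adjusted p below 0.05. They were made for 26 regions in the table (0.0822%) and for 4 distal regions, all lower in old cells. At an unadjusted p below 0.05 there were 929 distal regions (10.8%, 270 higher and 659 lower), against 9.60% of all regions. Every old library lay below every young library in 873 distal regions (10.1%), against 7.42% of all regions, and above in 438 (5.09%), against 7.09%. On the scale of log2(signal + 0.5), changes of regions with few reads are understated.

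The largest called change was in a 1.5 kb region, chr10:56910501-56912000, 531 kb beyond Gja1, the gene of a gap junction connexin. It held 19, 12 and 21 reads in the young and 5, 0 and 2 reads in the old replicates, or 3.10, 3.46 and 3.45 against 1.00, 0 and 0.51 scaled RPM. The log2 fold change was -2.54 ± 0.52 (SE) with an adjusted p of 0.032. The region chr12:58423001-58428000, 154 kb beyond Clec14a, an endothelial lectin gene, had 6.53, 6.64 and 8.88 scaled RPM in the young and 2.59, 1.57 and 4.08 in the old replicates (-1.42 ± 0.29 SE, adjusted p 0.032). Inside Slc1a3, a glutamate transporter, chr15:8643001-8648000 had 7.84, 5.48 and 7.73 against 2.99, 2.36 and 2.29 scaled RPM (-1.37 ± 0.27 SE, adjusted p 0.031). The 13.5 kb region chr7:115574001-115587500, inside Sox6 and 237 kb from its start, had 14.7, 15.0 and 13.8 against 8.37, 7.47 and 8.41 scaled RPM (-0.83 ± 0.18 SE, adjusted p 0.049). In none of the 4 did the ages overlap, but a choice by this test favours separated groups, so this adds no support. Without Young replicate 1, Young replicate 3 or Old replicate 2, limma called 0 distal regions (525, 856 and 732 at an unadjusted p below 0.05). The Sox6 call was lost without any 1 of the 6 libraries (adjusted p 0.060 to 0.39) and after correction for GC content (0.084). Without Young replicate 2 limma called 2, 1 of them higher, and without Old replicate 1 it called 9. The count test of edgeR on recovered reads called 20 distal regions, 13 lower and 7 higher, and all 4 were among them.

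Summed over a cluster, reads are more numerous and changes of smaller size can be seen. This test of the 538 clusters was added after the regions had been seen. It called 21 clusters in limma (3.9%), 19 lower and 2 higher in old cells, and edgeR called all of them and 7 others. Old lay below young without overlap in 107 clusters (19.9%) and above in 38 (7.06%). The called decreases ranged from -0.58 to -0.29 on the log2 scale. The called clusters beside Dcn, Trps1, Sox6 and Ebf1 share regions with the sums given above for these genes. Gene sums and cluster sums there are not separate results.

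The 6 largest decreases are given first. The cluster of 10 regions between Btg1 and Dcn, chr10:97282001-97411500, fell from 71.4, 59.4 and 60.7 to 50.2, 32.6 and 46.6 scaled RPM (log2 fold change -0.58 ± 0.13 SE, adjusted p 0.027 in limma). Between Tbx15, a T-box factor of the limb and skeleton, and Spag17, 9 regions fell from 30.4, 24.2 and 33.9 to 21.5, 17.7 and 20.9 scaled RPM (-0.54 ± 0.14 SE, adjusted p 0.033). Inside Plce1, a phospholipase gene, 8 regions fell from 79.4, 70.1 and 66.9 to 57.2, 38.5 and 59.9 scaled RPM (-0.50 ± 0.13 SE, adjusted p 0.038). In each of these 6 decreases Old replicate 2, the shallowest library, was the lowest. Between Pdgfc, a growth factor gene 499 kb away, and Ctso, 122 kb away, 9 regions fell from 48.0, 40.7 and 51.1 to 40.3, 28.3 and 31.1 scaled RPM (-0.50 ± 0.13 SE, adjusted p 0.031). Between Gja1 and Hsf2, 10 regions that include the called one fell from 56.8, 49.0 and 61.2 to 39.7, 38.1 and 41.3 scaled RPM (-0.48 ± 0.11 SE, adjusted p 0.016). Between Trps1 and Eif3h, 10 regions fell from 83.1, 73.9 and 68.6 to 62.8, 41.3 and 60.1 scaled RPM (-0.48 ± 0.13 SE, adjusted p 0.040). Without Old replicate 2 the value was -0.30 (adjusted p 0.076) for Plce1-Noc3l and -0.29 (adjusted p 0.092) for Trps1-Eif3h.

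The cluster with the most regions among the decreases held 22 between Insc and Sox6, chr7:115308501-115756500, most inside Sox6 and with the called region among them. It fell from 180, 148 and 155 to 139, 117 and 126 scaled RPM (-0.34 ± 0.09 SE, adjusted p 0.033 in limma). Other decreases lay between Ebf1 and Clint1, Cstf2t and Prkg1, Prkg1 and Cstf2t, Unc5c and Bmpr1b, Fam76b and Sesn3, Gm5447 and Foxq1, Usp25 and Gm11146, Gm765 and Foxp1, Prkch and Hif1a, Plxdc2 and Nebl, and Sh2d4a and Csgalnact1. The increases were 5 regions spanning 26.5 kb at Ank and Otulin, from 10.3, 13.6 and 12.5 to 19.9, 35.0 and 17.1 scaled RPM (0.91 ± 0.22 SE, adjusted p 0.031), and 7 regions between Banp and Zfpm1 (0.37 ± 0.11 SE, adjusted p 0.043). Without Old replicate 2 the Ank-Otulin value was 0.61 (adjusted p 0.066). Old replicate 2 was the lowest library in every called decrease except Fam76b-Sesn3 and Usp25-Gm11146, and the highest in both increases.

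The number of calls changed with single libraries. Without Young replicate 1 limma called 0 clusters (61 at an unadjusted p below 0.05). Without Young replicates 2 and 3 in turn it called 8 and 4, of which 8 and 3 were among the 21. Without Old replicates 1, 2 and 3 in turn it called 41, 11 and 12, of which 19, 8 and 10 were among the 21. After a straight line on GC content had been removed from each library it called 0 (98 at an unadjusted p below 0.05), with adjusted p-values of 0.053 to 0.16 for the 21. Their folds kept their sign, at -0.51 to -0.23 for the decreases and 0.27 and 0.87 for the increases.

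**Figure D4:**
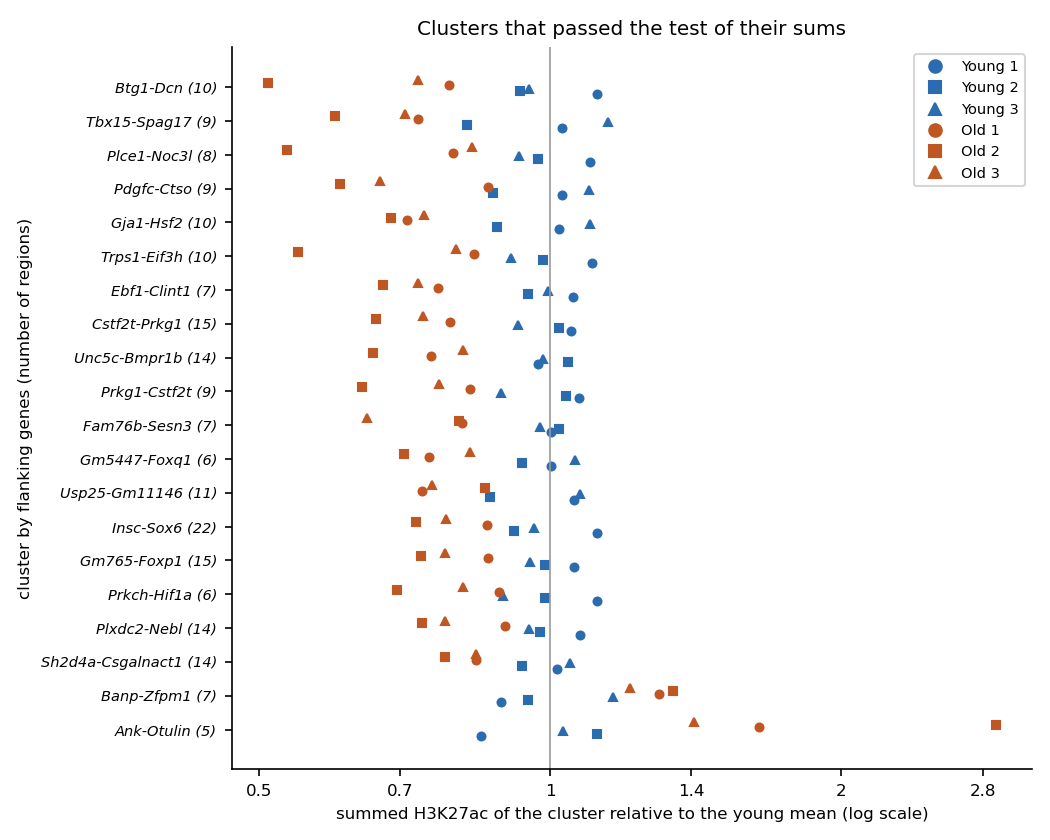
Summed H3K27ac of 20 of the 21 called clusters in each library, relative to the mean of the 3 young libraries on a log scale, named by flanking genes with the number of regions in brackets. Young libraries are blue and old libraries orange. In the upper 18 clusters every old library lies to the left of every young one, and in the lower 2 to the right. The clusters were chosen by the test, which favours such separation.

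The age difference was graded by distance from genes, a pattern noticed in these data. The median log2 fold change was -0.02 for the 3590 regions at 50 to 100 kb, -0.07 for 2789 at 100 to 200 kb, -0.12 for 1832 at 200 to 500 kb and -0.14 for 398 beyond 500 kb. In the farthest group every old library lay below every young one in 13.8% of regions and above in 3.02%, against 7.42% and 7.09% of all regions. In deserts the median was -0.14 (2361 regions), between genes outside deserts -0.06 (2423) and inside genes -0.02. Per library, regions beyond 200 kb lay below those at 50 to 100 kb by 0.22, 0.31 and 0.24 log2 units in the young and by 0.32, 0.39 and 0.36 in the old replicates, without overlap. Within each age the shallowest library, replicate 2, had the largest difference. From the nearest to the farthest group the median length fell from 4.0 to 3.0 kb. The median reads per region, as means of 3 libraries, fell from 22.7 to 17.3 in the young and from 16.3 to 11.3 in the old. The part of depth and length in the pattern was not tested.

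GC content moves with distance and with library. Its median went from 43.4% at 50 to 100 kb to 39.2% beyond 500 kb, and the slope of log2 signal on GC was -0.012, 0.0011 and -0.0071 per percent in the young and -0.0013, 0.0085 and 0.011 in the old replicates. After the straight-line correction the 4 medians were -0.007, -0.04, -0.08 and -0.06, and the per-library differences were 0.24, 0.30 and 0.26 in the young and 0.32, 0.37 and 0.33 in the old replicates, still without overlap. With the regions split by GC into 4 parts of similar size, in each the median lay lower beyond 200 kb than at 50 to 100 kb, by -0.15 against -0.05 in the poorest and -0.05 against 0.03 in the richest part. The remaining part of base composition in the pattern was not tested.

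**Figure D5:**
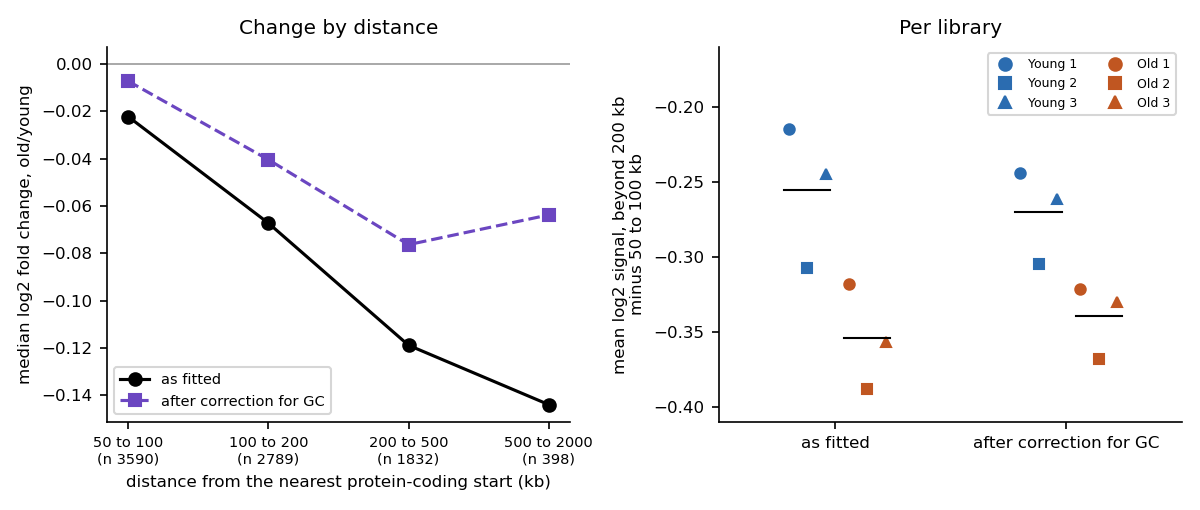
Left, median log2 fold change (old over young) of distal regions in 4 ranges of distance, before and after correction for GC content. Right, mean log2 signal of regions beyond 200 kb minus that of regions at 50 to 100 kb in each library, with group means as lines; the old libraries lie below the young ones in both versions.

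None of the 5 strongest regions per kb was called. Among regions of at least 2 kb, the highest mean density was 2.69 scaled RPM per kb, at chr5:74973001-74976000, 68.8 kb from Chic2 in the stretch between Lnx1 and Chic2. It was followed by chr3:18622501-18626500 beyond Cyp7b1 (2.59), chr16:15249001-15255500 near Gm21897 (2.56), chr1:162034001-162046500 inside Dnm3 (2.54) and chr3:152567501-152571000 inside Ak5 (2.54). Their adjusted p-values in limma were 0.35 to 0.99. The region beyond Cyp7b1 had 13.6, 11.0 and 11.8 scaled RPM in the young and 8.97, 7.47 and 9.43 in the old replicates. The region at Dnm3 had 37.7, 32.3 and 35.5 scaled RPM in the young and 27.3, 28.7 and 29.0 in the old replicates. In both, every old library lay below every young one, as in 7.42% of all H3K27ac regions. The 3 most remote regions lay 1675.6 kb from Efna5, 1666.8 kb from Celf4 and 1639.7 kb from Ptprd, with mean densities of 0.73, 1.13 and 0.99 scaled RPM per kb and no call.

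Distal regions and the nearest acetylated start changed only loosely together. Over 6042 pairs of a distal region and the H3K27ac region on its nearest start, the log2 fold changes had a Pearson correlation of 0.15 and a Spearman correlation of 0.17, and 57.0% had the same sign. Regions are not independent replicates, starts are shared between pairs and all values come from the same 6 libraries, so this is a description.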

How the data were processed

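For each mark the authors deposited 1 table of regions shared by old and young samples, on a grid of 500 bp, with 1 signal column per replicate. The submitters' processing notes name Bowtie2, Picard and mm10 (GRCm38) without roles; the region caller is not given in the sources used here. The deposited signal was in units of RPKM for a constant 500 bp, not divided by region length, so whole reads (100% of values within 0.01 read) and library totals were recovered. The design had assumed RPKM; its tests were kept, since a constant divisor leaves fold changes unaltered, and count tests were added. The authors' state of each region (old, young or both) is their own comparison and was not used. The number of value columns not used was 0. Genome sequence was RefSeq GRCm38.p6.

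H3K27ac columns were divided by RLE factors and log2(signal + 0.5) was fitted with limma 3.58.1 (R 4.3.3; trend and robust moderation, two-sided, Benjamini-Hochberg over all regions, no filter on low values, no replicate block). edgeR 4.0.16 and DESeq2 1.42.0 were run on recovered reads. Single values were compared by exact permutation tests in scipy 1.17.1. The fits were tested on simulated data with 200 changed regions. A gene was named if it was among the 5 with the most regions (ties kept) or had 3 or more regions and stood among the first 6 of its list; some genes that met this rule, and 1 called cluster, are not reported here. Named regions were those called, the 5 densest of at least 2 kb and the 3 most remote, with the 8 largest clusters; called clusters were named after their values were seen. Motifs were searched on both strands. The regions, gene lists and markers were chosen with earlier results of these data known. Yeast DNA, which the labels list in the stop buffer, was not used here.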

Additional observations from a re-analysis of the deposited data

How the results depend on the processing

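The direction of the age difference held in the alternatives run, but the number of calls did not. Against 4 called distal regions in limma, 38 were called on values as deposited, 1 with a pseudocount of 0.1, 8 with a pseudocount of 1, 20 with edgeR, 0 without trend and robust moderation (892 at an unadjusted p below 0.05) and 0 with DESeq2 (267), which gave no adjusted p for the 4 regions. TMM, the removal of the weakest regions (below the lower quartile) and the GC correction, added after seeing the data, each gave 4; with the GC correction 1 of them was higher and the Sox6 region was lost, and the quartile filter removed the Gja1 region. With a replicate block 13 were called. Same-numbered libraries did not deviate together (correlations of 0.066, 0.017 and -0.054), so the numbers are not taken to pair the samples. Leaving out 1 replicate gave 0 to 9 calls. The median log2 fold change of the distal regions was -0.18 on values as deposited, where that of all regions was -0.12, and -0.09 to -0.04 without 1 replicate. It was -0.038 with the weakest regions removed (all regions 0.012) and -0.035 after GC correction (all regions -0.003), against -0.064 in the main fit. Without 1 replicate the old-minus-young difference was -0.81 to -0.39 percentage points for the share of reads, -0.13 to -0.08 for the level against nearer regions and -0.12 to -0.08 for the distance gradient.

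Against 21 called clusters there were 12 on values as deposited, 44 with a replicate block, 0 without trend and robust moderation (100 at an unadjusted p below 0.05), 0 after GC correction, 1 with a gap of 200 kb and 0 to 41 without 1 replicate; the cause was not tested. Clusters numbered 313 when the distance was 100 kb and 150 when starts of all annotated genes counted. Regions in deserts were then 862. In the main set, 1006 of the 2361 regions in deserts lay in deserts of at least 1 Mb. The nearest start of any gene carried H3K27ac for 37.8% of the 3269 regions over 50 kb from every annotated start. For 71.4% of the distal regions the nearest protein-coding start lay within 1 kb of an H3K27ac region. In the central 500 bp the share of regions with a motif exceeded that of all regions by 4.43 percentage points for AP-1, 3.93 for TEAD, 0.45 for C/EBP and 1.35 for HOX, and differed by -0.86 for the CTCF core. There the CTCF core was found in 0.59% of distal and 0.61% of nearer distal regions. Depth limits single regions: at a median of 10 to 25 reads only large changes can pass.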
